A study of Homo sapiens with 6 samples.

Results

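Chemokines are small secreted proteins that attract leukocytes by acting on receptors coupled to G proteins, and interleukins are secreted signals that act on receptors built from several chains, most of which pass the signal to Janus kinases (JAK) and STAT transcription factors. Neutrophils and their precursors use both systems: CXCR4 holds immature myeloid cells in the bone marrow, CXCL8 is the main chemokine that draws neutrophils to a site of inflammation, and chains such as IL6R and IL1RAP are found on leukemic myeloid cells. The genes described here were picked by a name pattern from the deposited human gene table, with earlier results of these data known: the CXC, CC and CX3C chemokines and their receptors, the atypical chemokine receptors, and every symbol that starts with IL and a number. IL32 and IL3RA match the pattern, but the rule leaves them out by name without giving a reason, which left 64 of 18625 listed genes. By role these were 15 chemokines, 8 chemokine receptors, 10 interleukins, 27 interleukin receptor chains, 2 genes for an antagonist or a binding protein (IL1RN and IL18BP), the enzyme gene IL4I1 and the pseudogene IL9RP3.

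RNA-seq libraries were made from NB4 cells, a cell line from a human acute promyelocytic leukemia that carries the PML-RARα fusion. The DMSO group (3 libraries) received the solvent for 3 days and the Tan I group (3 libraries) received 10 μM Tanshinone I, a diterpene of Salvia miltiorrhiza that the study examined as an inhibitor of the histone methyltransferase EZH2, also for 3 days. Both groups are the same cell line in the same medium, so each result is from 1 cell line. The labels do not say whether the 3 libraries of a group came from separate cultures, so the p-values measure the spread between these libraries, which may be technical.

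The values are normalized counts, that is, reads per gene divided by 1 size factor per library, and every value (100%) was a whole number of reads in that unit. The libraries held between 21502760 and 31679138 reads on the listed genes. All 6 libraries were distinct. The libraries of a group differed widely, with the first principal component of all tested genes holding 70.8% of the variance and its scores running from -48.0 to 41.1 in DMSO and from -46.8 to 71.6 in Tan I. Of the promyelocyte markers fixed for the check of the label, MPO, PRTN3, AZU1, CTSG and CD33 were listed and ELANE was not analysed here. Their summed level was 70959 to 76923 normalized counts in DMSO and 41825 to 50123 in Tan I, but this sum is mostly MPO. MPO and CTSG were called lower, at -0.78 and -0.69 on the log2 scale, while PRTN3, AZU1 and CD33 overlapped between the groups and were not called, CD33 having the higher mean in Tan I. Of the marker lists for other cell types, 2 of 6 monocyte and macrophage genes (21.9 to 31.8 in DMSO, 29.5 to 45.0 in Tan I), 4 of 5 T cell genes (764 to 1215 and 1018 to 1790), 2 of 4 B cell genes (170 to 179 and 159 to 172), 1 of 4 erythroid genes (15.4 to 51.3 and 10.7 to 28.3) and 2 of 4 fibroblast genes (120 to 152 and 99.7 to 151) were listed. The remaining genes of these lists were not analysed here, and no listed marker had a mean of 0. These sums overlapped between the groups. Of the T cell genes, however, TRAC was called higher in Tan I (log2 fold change 0.73, unadjusted p = 0.0253 in limma, 0.999 after adjustment). Its libraries overlapped, with 444, 736 and 526 normalized counts in DMSO and 665, 1000 and 1170 in Tan I. CD2 was not called but its libraries did not overlap (0.37), and CD3D and CD3E were at 0.23 and 0.31 without a call. The part of the markers in the results below was not tested.

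Tan I and DMSO were compared to ask which of these signalling genes differ after treatment. The test was limma on log2(normalized count + 1) over all 16887 genes with a mean of at least 10 normalized counts, and a gene is said to be called when its unadjusted p-value was at most 0.05 and its log2 fold change was 0.25 or more in either direction, the thresholds of the study. The 58 members that reached the mean were tested and the other 6 were not. Limma called 3 of the 58, or 5.17%, beside 408 of all genes tested, or 2.42%. These were CXCL8 and IL9R, higher in Tan I (1.32% of all genes were called higher), and IL6R, lower in Tan I (1.1% of all genes). In RNA from whole cultures, fewer cells that express a gene and less of its RNA per cell cannot be told apart. After Benjamini-Hochberg adjustment over all genes, limma called 0 members and 0 genes, the smallest adjusted p-value of a member being 0.999. On the recovered reads and at the same unadjusted thresholds edgeR called 3 members and DESeq2 called 4, and with adjustment both called 0 members. The libraries of the groups did not overlap for 7 of the 58 members (12.1%) beside 7.89% of all genes. Of these, 4 were higher and 3 lower, where 3.92% and 3.97% of all genes lay apart in those directions. The median log2 fold change was -0.04 over the members, with 26 above 0 and 32 below, and 0.00 over all genes, of which 49.7% were above 0. The count depended on single libraries: without Tan I replicate 1 it was 13 members (and 1496 of all genes), and without DMSO replicate 2 it was 6 members.

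The 3 called members are shown first by the DNA in front of their start sites, since these are the genes that the comparison turns on. Sequences are from RefSeq on GRCh38.p14, 250 bases upstream of the start of the RefSeq gene, 5′ to 3′ on the strand of the gene. The RefSeq starts of CXCL8 and IL6R lie downstream of the first base that GENCODE gives for these genes, so the last part of both stretches lies inside the GENCODE gene. They cover chr4:73740319-73740568 for CXCL8, chr1:154405093-154405342 for IL6R and chrX:155997446-155997695 for IL9R, all on the + strand. Capitals mark matches to 3 motifs searched on both strands. These are GGNNNTTCC and TGANTCA, loose forms of the NF-κB and AP-1 sites in which N is any base, and TATAAA, the TATA box.
CXCL8: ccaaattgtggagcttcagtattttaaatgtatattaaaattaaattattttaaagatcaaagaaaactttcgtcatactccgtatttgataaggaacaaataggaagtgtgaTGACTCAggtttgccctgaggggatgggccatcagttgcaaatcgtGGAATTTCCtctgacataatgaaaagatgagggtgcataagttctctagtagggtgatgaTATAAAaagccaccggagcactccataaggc
IL6R: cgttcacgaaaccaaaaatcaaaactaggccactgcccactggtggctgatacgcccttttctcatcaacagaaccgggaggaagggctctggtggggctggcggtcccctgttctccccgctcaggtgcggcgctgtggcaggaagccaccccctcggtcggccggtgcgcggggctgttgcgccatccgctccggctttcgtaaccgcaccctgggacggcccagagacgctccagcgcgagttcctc
IL9R: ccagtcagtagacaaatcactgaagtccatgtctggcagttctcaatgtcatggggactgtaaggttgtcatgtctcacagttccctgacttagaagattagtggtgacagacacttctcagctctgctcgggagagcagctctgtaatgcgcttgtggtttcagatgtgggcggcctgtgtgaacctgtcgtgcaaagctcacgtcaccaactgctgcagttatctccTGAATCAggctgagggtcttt

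The CXCL8 stretch held all 3 motifs, with the AP-1 match from -137 to -131, the NF-κB-like match from -91 to -83 and the TATA match from -31 to -26 relative to the RefSeq start. The IL9R stretch held a match to the AP-1 letters from -21 to -15, reading TGAATCA, with A in place of N. The IL6R stretch shown held no match, its AP-1 match lying after the RefSeq start, from 38 to 44. In windows of 250 bases before and 50 after the start, the NF-κB-like letters were present in 7 of the 11 chemokine promoters found in the RefSeq table (63.6%), in 7 of 23 interleukin receptor promoters (30.4%), in 0 of 8 interleukin promoters and in 20.2% of all 27195 promoters. The AP-1 letters were present in 3 of 11, 4 of 23 and 4 of 8 and in 7.73% of all, and the TATA letters in 6 of 11, 1 of 23 and 2 of 8 and in 12% of all. In all, 50 of the 64 members had a promoter there. A match to these letters is a description of the sequence and not a binding site, and chemokine genes lie in clusters of related copies, so their promoters are not independent.

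Most chemokines had a log2 fold change above 0, but CXCL8 was the single one called. Of the 12 chemokines tested, 1 was called higher and 0 lower, 9 had a log2 fold change above 0 and 3 below, and their median log2 fold change was 0.29 beside 0.00 for all genes. With 1 library left out at a time, 8 to 10 of the 12 were above 0, with medians from 0.09 without Tan I replicate 3 to 0.43 without Tan I replicate 1. Without that last library limma also called CCL5, CCL4, CCL3 and CCL2 higher, at 0.45, 0.76, 0.74 and 1.33 on the log2 scale, with adjusted p-values of 0.532. In that setting 1496 of all 16887 genes were called, beside 408 with all libraries. Of the T cell markers given above, TRAC was called higher in the comparison of all libraries, where CCL5, CCL4, CCL3 and CCL2 were not called. The part of TRAC-expressing cells in the chemokine values was not tested.

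CXCL8 (ENSG00000169429), the neutrophil attractant also called IL-8, is transcribed from the + strand of chromosome 4 (GRCh38, GENCODE, 73740519 to 73743716), with 4 exons in its canonical transcript and no overlapping gene in GENCODE release 44. It had 2143, 1526 and 2178 normalized counts in DMSO replicates 1, 2 and 3 and 2693, 3407 and 3415 in the Tan I replicates. The lowest Tan I value exceeded the highest DMSO value, and a two-sided exact permutation test gave p = 0.1, the smallest that 3 libraries against 3 allow. The means were 1949 ± 367 and 3172 ± 415 (SD, n = 3 per group), which is 1.64-fold higher in Tan I. On the log2 scale the change was 0.71, with a standard error of 0.18 and a 95% confidence interval from 0.30 to 1.13. In limma its unadjusted p was 0.00446, and after adjustment it was 0.999. CXCL8 was called in each of its 17 alternatives at this fold threshold, with a log2 fold change from 0.55 to 0.83. In a limma fit that also held the first principal component, its adjusted p-value was 0.0137, within a range of 0.0137 to 1 over the alternatives.

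CCL3, CCL4 and CCL2, which attract monocytes and other leukocytes, had higher means in Tan I but overlapping libraries. CCL4 had 199, 153 and 237 normalized counts in DMSO and 211, 282 and 383 in Tan I, and CCL3 had 127, 112 and 152 in DMSO and 115, 173 and 269 in Tan I. In both genes Tan I replicate 1 lay among the DMSO libraries and Tan I replicate 3 was the highest of the 6. Their log2 fold changes were 0.55 (95% confidence interval -0.06 to 1.16) and 0.44 (-0.29 to 1.16), and limma called neither. CCL3 and CCL4 have near-identical copies, CCL3L1 and CCL4L2, and the authors removed reads that map to several places, so the counts of all 4 genes are uncertain. The copies had log2 fold changes of 0.18 and 0.31 and were not called either. CCL2 had 21.4, 44.3 and 21.1 normalized counts in DMSO and 33.2, 61.1 and 80.0 in Tan I, with a log2 fold change of 0.98 (95% confidence interval -0.03 to 1.99). It was not called by limma (unadjusted p = 0.0551) but was called in 6 of its 16 alternatives, among them DESeq2 on the recovered reads (unadjusted p = 0.0445).

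CCL5, an attractant of T cells and monocytes, was the most abundant member. It had 6550, 8582 and 7487 normalized counts in DMSO and 6792, 8994 and 11645 in Tan I. The groups overlapped, and the log2 fold change of 0.25 (95% confidence interval -0.24 to 0.75) was not called. CCL20, the ligand of CCR6, had 137 ± 42.7 in DMSO and 158 ± 39.8 under Tan I (SD, n = 3 per group), also without a call.

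The other 6 chemokines tested were weakly expressed, and none was called. CCL23, a chemokine of the same family as CCL3, had a log2 fold change of 0.83 with a 95% confidence interval from -0.53 to 2.19. CCL25 and CXCL3 had higher means in Tan I, at 0.33 and 0.15 on the log2 scale, and CXCL2, CXCL10 and CXCL16 had lower ones, at -0.33, -0.24 and -0.21. CXCL2 and CXCL3 act on CXCR2, as CXCL8 does.

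**Figure D1:**
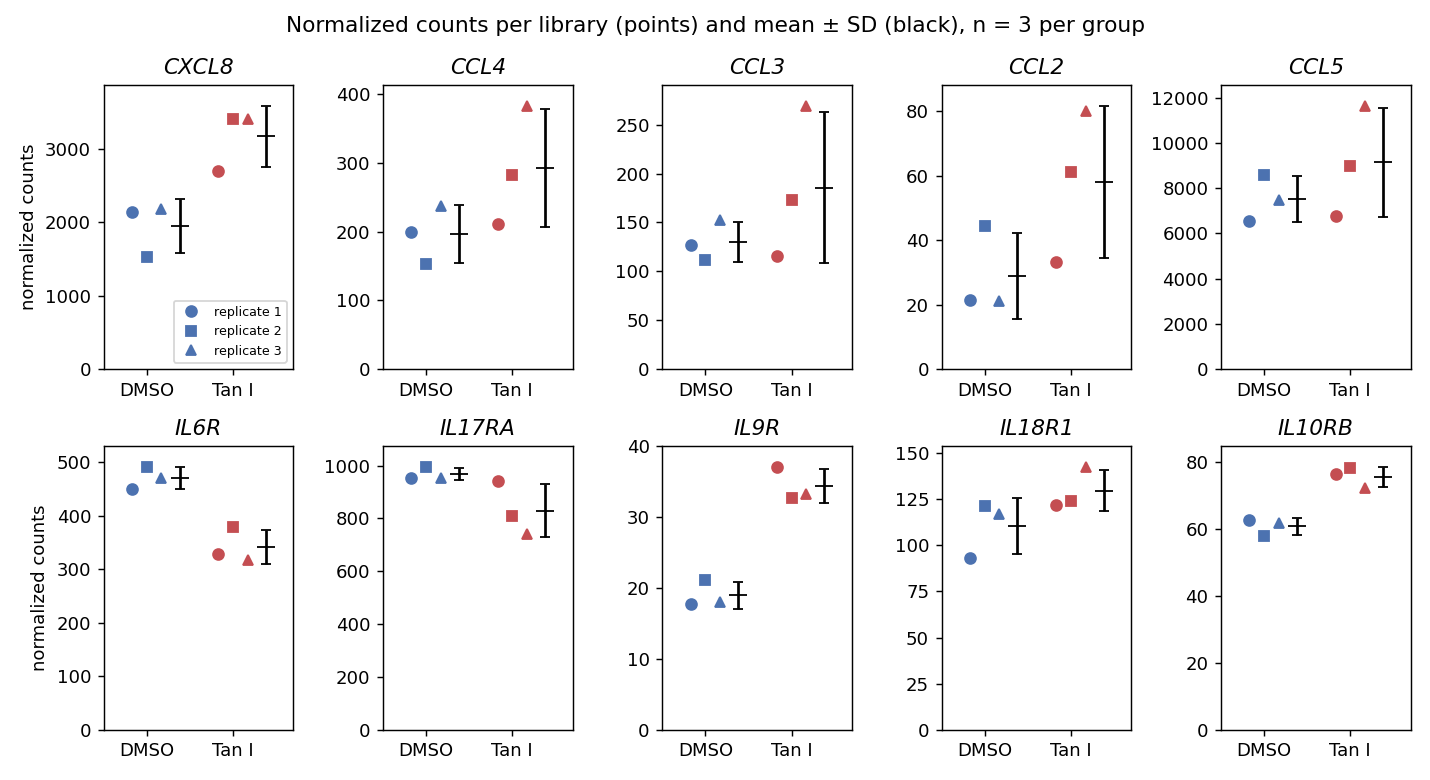
Normalized counts (vertical axis, linear and starting at 0) of 10 members in each library, with DMSO in blue, Tan I in red and a marker shape for each replicate number; black bars are the mean ± SD of 3 libraries. CXCL8, IL9R, IL18R1 and IL10RB have all Tan I points above all DMSO points, IL6R and IL17RA all below, and CCL4, CCL3, CCL2 and CCL5 overlap.

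Among the 6 chemokine receptors tested, 0 were called, and 5 had a log2 fold change below 0. CXCR4, the receptor of CXCL12 that retains myeloid cells in the marrow, was the most abundant of them. It had 320, 323 and 362 normalized counts in DMSO and 238, 284 and 331 in Tan I, so that Tan I replicate 3 lay within the DMSO range. Its log2 fold change came to -0.25 (95% confidence interval -0.63 to 0.13; unadjusted p = 0.171 in limma). CXCR2, a receptor of CXCL8, was weakly expressed, with 11.5 ± 6.95 normalized counts under DMSO and 14.98 ± 6.69 under Tan I (SD, n = 3 per group). CCR1, a receptor of CCL3 and CCL5, had 64.3 ± 27.1 and 49.1 ± 16.6, and CCR10, which binds CCL27 and CCL28, had 68.6 ± 8.84 and 63.4 ± 8.51.

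CXCR6, the receptor of CXCL16, and ACKR4, an atypical receptor that takes up chemokines without signalling through G proteins, had the lowest log2 fold changes of all members tested, at -1.29 and -1.68, yet their libraries differed more within groups than between them. CXCR6 had 89.5, 4.82 and 52.4 normalized counts in DMSO and 110, 6.32 and 1.33 in Tan I, so that DMSO replicate 2 and Tan I replicates 2 and 3 were low and the other 3 libraries were high. The highest DMSO library held 18.6 times the lowest, where the median of this ratio over all genes tested was 1.38. ACKR4 had 23.3, 6.74 and 17.2 in DMSO and 12.7, 1.05 and 2.67 in Tan I, which rest on 25, 7, 22, 13, 1 and 2 reads. The confidence intervals reached from -4.89 to 2.30 for CXCR6 and from -3.56 to 0.19 for ACKR4, and neither was called. Without Tan I replicate 1, both were called lower, with log2 fold changes of -2.88 and -2.46, and ACKR4 was also called without DMSO replicate 2, at -2.16. In these settings 1496 and 466 of all genes were called, beside 408 with all libraries.

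Each of these receptor genes overlaps a gene on the other strand, CXCR6 with FYCO1 and ACKR4 with ACAD11. Of the 64 members, 41 overlap another annotated gene on the same or the other strand, so this limit is not confined to the genes named with it. The strand setting of the counting is not given in the sources used here, so reads of the overlapping genes cannot be told apart. FYCO1 had 1049, 519 and 817 normalized counts in DMSO and 1085, 588 and 379 in Tan I, with the same 3 libraries low as for CXCR6. IL18BP, and IL9RP3, which is named here after its values were seen, were low in the same libraries. IL18BP, which encodes the secreted protein that neutralizes IL-18, had 506, 261 and 419 normalized counts in DMSO and 497, 302 and 173 in Tan I, and overlaps NUMA1 on the other strand. NUMA1 had 3293, 2424 and 3447 in DMSO and 3448, 3101 and 2522 in Tan I, with the same libraries lowest. The pseudogene IL9RP3 had 163, 65.5 and 145 in DMSO and 157, 85.4 and 48.0 in Tan I. These libraries were also those with the positive scores on the first principal component, at 41.1, 8.65 and 71.6 for DMSO replicate 2 and Tan I replicates 2 and 3. The part of that difference between libraries in the receptor values was not tested.

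**Figure D2:**
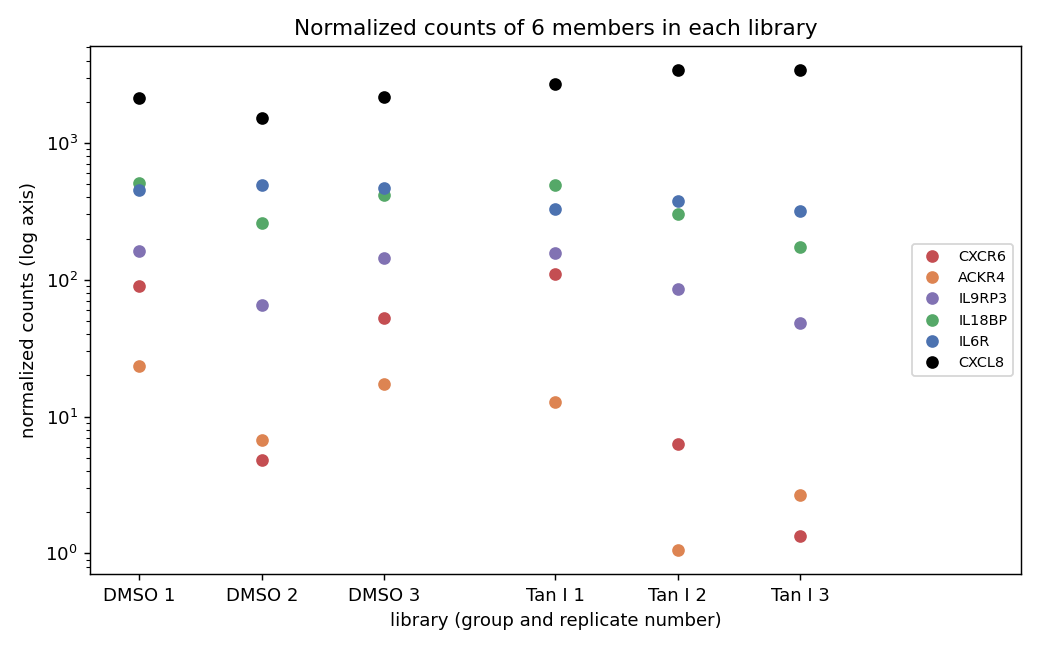
Normalized counts (vertical axis, log scale) of 6 members in each of the 6 libraries (horizontal axis, group and replicate number), 1 colored point per gene and library. CXCR6, ACKR4, IL9RP3 and IL18BP are lower in DMSO 2, Tan I 2 and Tan I 3 than in the other 3 libraries, while CXCL8 and IL6R separate by treatment.

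Of the 27 interleukin receptor chains, all of which were tested, 1 was called higher, 1 was called lower and 25 were not called. Their median log2 fold change was -0.07, with 10 above 0 and 17 below, and this balance turned to 14 above and 13 below without DMSO replicate 2 or without Tan I replicate 3. The libraries did not overlap for 6 of the 27 chains (22.2%), 3 in each direction, beside 7.89% of all genes.

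IL6R (ENSG00000160712) encodes the chain that binds IL-6 before the complex joins gp130. It occupies the + strand of chromosome 1 between 154405193 and 154469450 in GENCODE, with 10 exons in its canonical transcript, and overlaps the antisense gene IL6R-AS1 and the pseudogene PSMD8P1 on the other strand. It had 450, 491 and 470 normalized counts in DMSO and 328, 378 and 317 in Tan I. The highest Tan I value was below the lowest DMSO value, with p = 0.1 in the two-sided exact permutation test, the smallest possible. The means were 471 ± 20.4 and 341 ± 32.5 (SD, n = 3 per group), so that the level in Tan I was 0.724 times that in DMSO. On the log2 scale the change was -0.47, with a standard error of 0.13 and a 95% confidence interval from -0.77 to -0.16. In limma its unadjusted p was 0.00840, and after adjustment it was 0.999. IL6R was called in each of its 17 alternatives at this fold threshold, from -0.54 to -0.42, and its adjusted p-value was 0.0392 in the fit that held the first principal component, the lowest of a range that reached 1.

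IL6ST, which encodes gp130, the chain shared by the receptors for IL-6, IL-11 and IL-27, did not separate. It had 283, 275 and 291 normalized counts in DMSO and 340, 237 and 176 in Tan I, with Tan I replicate 1 above and Tan I replicates 2 and 3 below all DMSO libraries. Its partners IL11RA and IL27RA were also uncalled. IL11RA had 2361 ± 523 normalized counts under DMSO and 2149 ± 430 under Tan I, and IL27RA had 1390 ± 172 and 1681 ± 267 (SD, n = 3 per group), with log2 fold changes of -0.13 and 0.27.

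IL9R (ENSG00000124334), the chain that binds IL-9, a growth factor of mast cells and T cells, is found on the + strand of chromosome X between 155997696 and 156010817, with 9 exons in its canonical transcript. It was weakly expressed, resting on 19, 22 and 23 reads under DMSO and 38, 31 and 25 under Tan I. After normalization the values were 17.7, 21.2 and 18.0 normalized counts in DMSO and 37.1, 32.7 and 33.3 in Tan I, without overlap (p = 0.1, two-sided exact permutation test). The means were 19.0 ± 1.94 and 34.4 ± 2.41 (SD, n = 3 per group). On the log2 scale the change was 0.83, with a standard error of 0.27 and a 95% confidence interval from 0.21 to 1.45. In limma its unadjusted p was 0.0158, and after adjustment it was 0.999. The call was lost without DMSO replicate 1 (unadjusted p = 0.0553) and without DMSO replicate 3 (unadjusted p = 0.0552). Related pseudogene copies of IL9R exist, of which IL9RP3 is listed, and another annotated gene overlaps it on the same strand, so its count is uncertain. Its partner IL2RG, the common gamma chain of the receptors for IL-2, IL-4, IL-7, IL-9, IL-15 and IL-21, had 1584, 2189 and 1803 normalized counts in DMSO and 1513, 2363 and 2435 in Tan I, with a log2 fold change of 0.16 and no call.

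A further 4 chains had libraries that did not overlap and yet were not called. IL17RA, the chain shared by receptors of the IL-17 family, had 955, 996 and 954 normalized counts in DMSO and 940, 808 and 741 in Tan I. Tan I replicate 1 lay just under the lowest DMSO library, and the log2 fold change came to -0.23 (95% confidence interval -0.52 to 0.07). IL17RD, a regulator of growth factor signalling in the same family, had only 20, 19 and 20 reads in DMSO and 10, 13 and 4 in Tan I, with a log2 fold change of -0.88 (95% confidence interval -1.87 to 0.10). IL18R1, the chain that binds IL-18, had 93.2, 121 and 117 normalized counts in DMSO and 122, 124 and 143 in Tan I, a log2 fold change of 0.23, and IL10RB, shared by the receptors for IL-10 and IL-22, had 62.5, 57.8 and 61.7 in DMSO and 76.2, 78.0 and 72.01 in Tan I, a log2 fold change of 0.31. IL10RB overlaps the readthrough gene IFNAR2-IL10RB on the same strand. IL17RD and IL10RB were called by limma without the variance trend, with unadjusted p-values of 0.0304 and 0.0402. IL17RD was also called without Tan I replicate 2 (-1.16, unadjusted p = 0.0422 in limma), and IL17RA without Tan I replicate 1 (-0.32, unadjusted p = 0.0334 in limma). In the last setting 1496 of all genes were called.

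IL18RAP, the second chain of the IL-18 receptor, had 82.1 ± 14.6 normalized counts under DMSO and 112 ± 21.6 under Tan I (SD, n = 3 per group), with overlapping libraries and a log2 fold change of 0.44 (95% confidence interval -0.10 to 0.98). IL18R1 overlaps IL1RL1, the receptor of IL-33, on the same strand, and IL1RL1 had a log2 fold change of -0.18. IL5RA, the IL-5 chain, had the lowest log2 fold change of this group, -1.01, but it rests on 11, 16 and 20 reads in DMSO and 11, 1 and 11 in Tan I, and the low value in Tan I replicate 2 left a confidence interval from -2.83 to 0.81.

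Several well expressed chains had log2 fold changes near 0. IL4R, the chain for IL-4 and IL-13, had 495 ± 6.23 normalized counts under DMSO and 494 ± 46.4 under Tan I (SD, n = 3 per group), or -0.01 on the log2 scale with a 95% confidence interval from -0.30 to 0.28. IL1RAP, the accessory chain of the IL-1 receptor, had 520 ± 11.97 and 500 ± 67.9, with an interval from -0.39 to 0.25. The interval was -0.44 to 0.33 for IL13RA1, the second IL-13 chain, -0.39 to 0.24 for IL17RE, the receptor chain of IL-17C, and -0.54 to 0.34 for IL15RA, which presents IL-15. With 3 libraries per group, a difference within its interval is not excluded for any of these genes, and the interval of IL15RA includes a fall as large as that of IL6R.

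**Figure D3:**
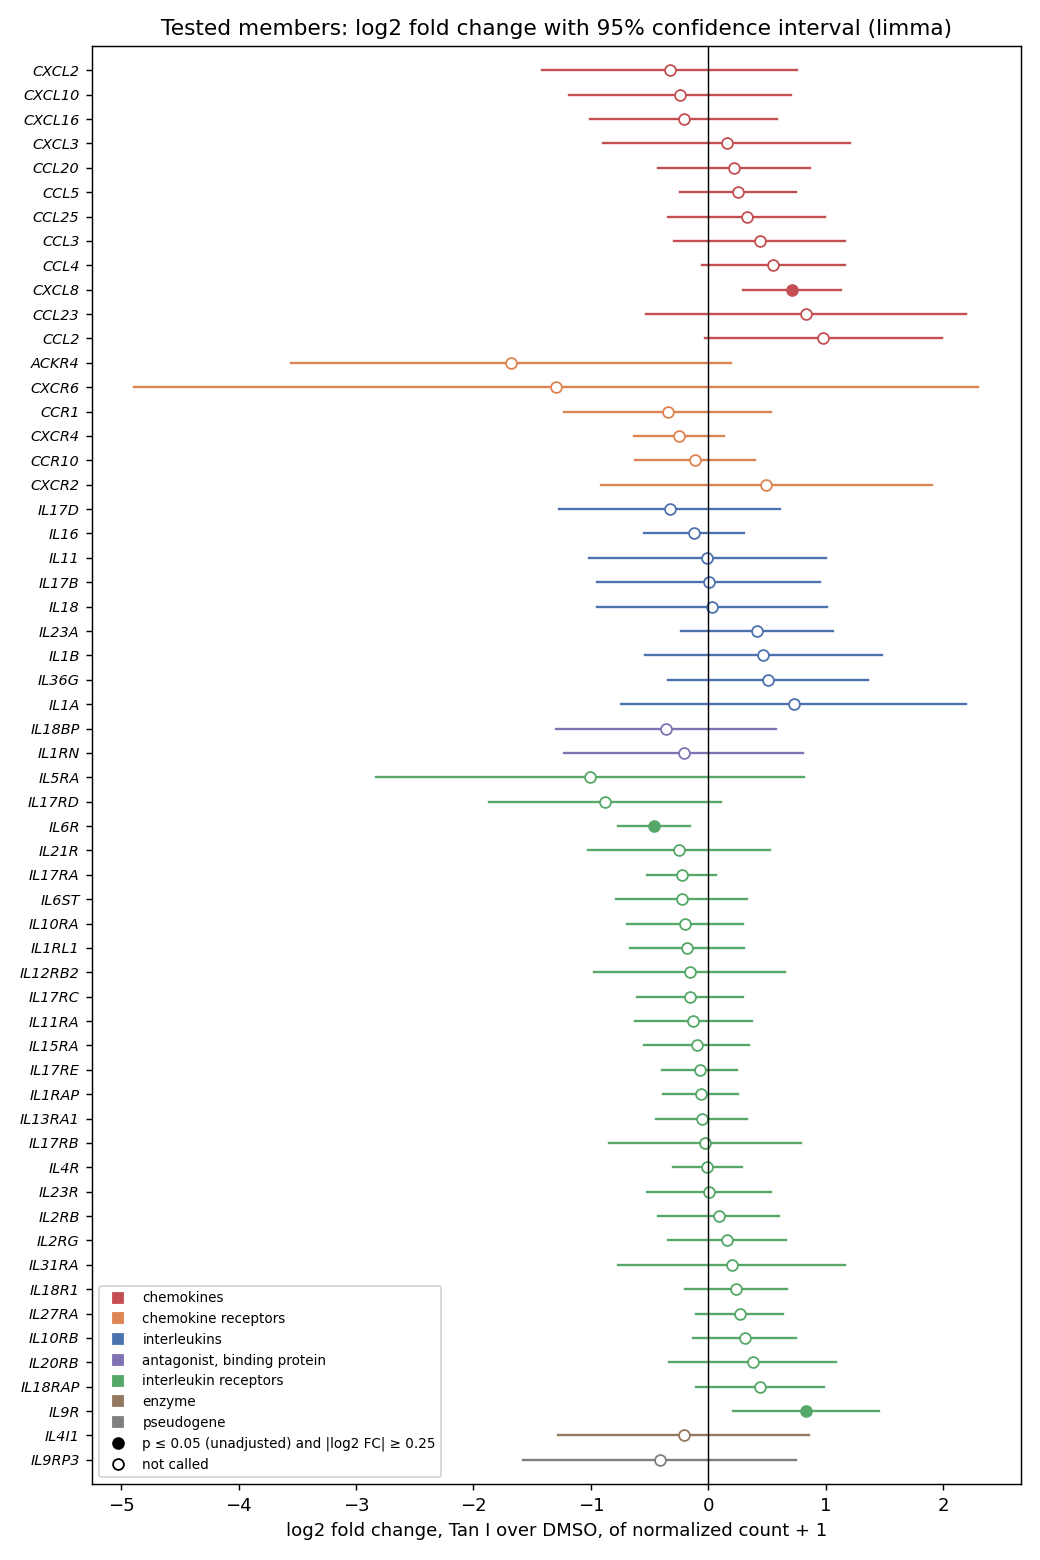
Log2 fold change between Tan I and DMSO (horizontal axis, on normalized count + 1) for the 58 members tested, 1 per line, with 95% confidence intervals from limma and colors for the roles; filled points are called at an unadjusted p of at most 0.05 with a log2 fold change of 0.25 or more in either direction. The filled points are CXCL8, IL6R and IL9R, and the other 55 intervals include 0.

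Of the 9 interleukins tested, 0 were called, and 6 had a log2 fold change above 0 and 3 below. When all libraries were set to equal totals, 4 were above 0 and 5 below. IL16, an attractant of CD4+ cells released from a larger precursor, was the most abundant, with 650, 774 and 547 normalized counts in DMSO and 682, 493 and 636 in Tan I. IL1B, a main inflammatory cytokine, had 41.0, 63.6 and 53.9 in DMSO and 42.0, 65.3 and 137 in Tan I, where Tan I replicate 2 lay just above the highest DMSO library and Tan I replicate 3 far above it. IL1A, the other IL-1 ligand, had a log2 fold change of 0.73 (95% confidence interval -0.74 to 2.20), with values from 2.89 to 18.6 normalized counts under DMSO and from 10.8 to 16.0 in Tan I. IL23A, the specific subunit of IL-23, had 48.5 ± 14.9 in DMSO and 63.2 ± 5.70 under Tan I (SD, n = 3 per group). IL1RN, the antagonist of the IL-1 receptor, had 27.5 ± 11.8 and 22.4 ± 5.91.

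The 6 members under the mean of 10 were CX3CR1, CXCL11, IL15, CXCL5, CCL24 and ACKR2, and all had means between 5.93 and 9.63 normalized counts. CXCL11 had 8, 9 and 22 reads in DMSO and 5, 4 and 4 in Tan I, and IL15 had 5, 5 and 8 reads in DMSO and 8, 12 and 6 in Tan I. In normalized counts the groups did not overlap for these genes, CXCL11 being lower and IL15 higher in Tan I, but they were left out of the test.

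Levels were compared between genes per kb of annotated exon. CCL5 stood first with 6116 normalized counts per kb over the 6 libraries, and its lowest library (4802) lay above the highest of CXCL8 (1320). CXCL8 (989), IL2RG (724), IL27RA (520) and IL11RA (429) followed, and each of these overlapped its neighbor in at least 1 library. The next was CCL4 at 136, whose highest library (213) lay below the lowest of IL11RA (336). From CCL4 downward the levels ran without a gap through CXCR4 (107), CCL3 (106), IL17RA (96.8) and CCL20 (92.4) to IL15 (0.935), and neighbors in this order were not separated. The lengths are unions of all annotated exons and overstate the length of genes with many rare transcripts.

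**Figure D4:**
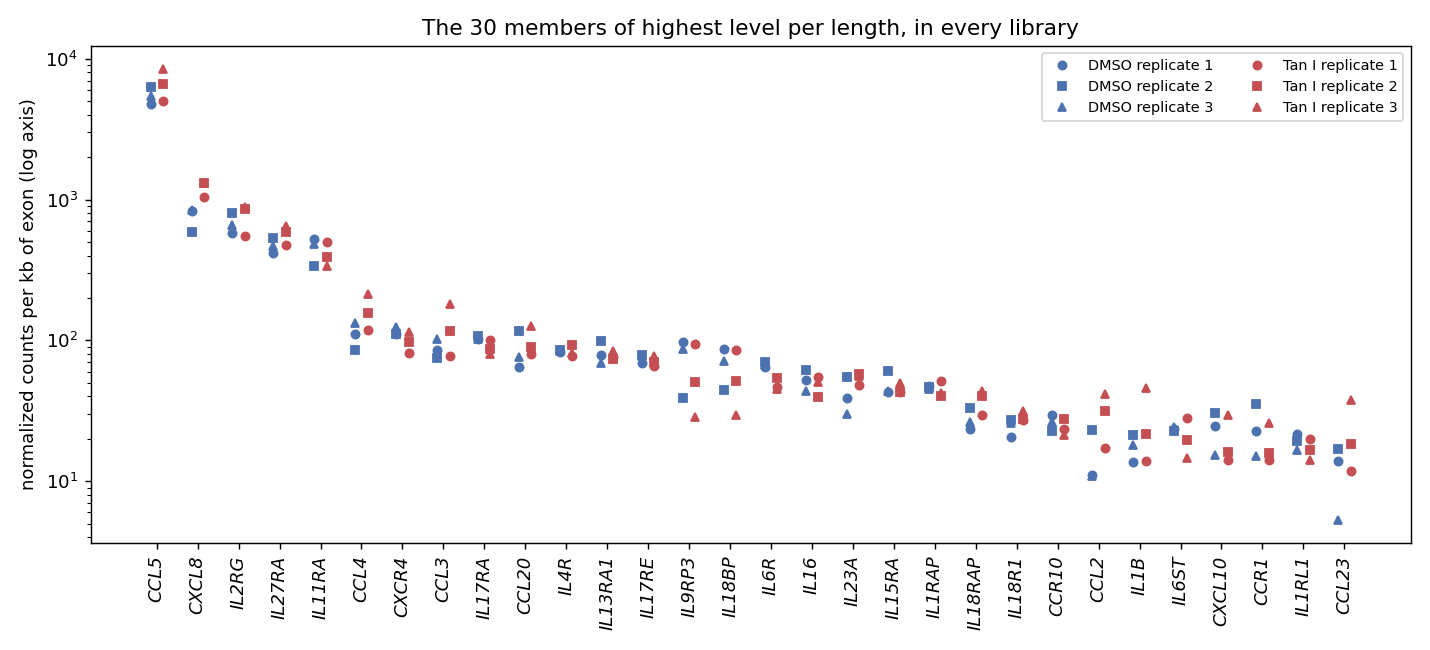
Normalized counts per kb of exon (vertical axis, log scale) for the 30 members of highest level, ordered from left to right, with DMSO libraries in blue, Tan I libraries in red and a marker shape for each replicate number. CCL5 stands apart at 6116 on average, 4 genes lie between 429 and 989, and the rest lie at 136 or lower.

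Genes that carry the signals of these receptors, or belong to the same systems, were read from lists written from general knowledge. Of 50 genes of the interleukin signalling list, 49 were listed and 47 tested. Not all lie downstream of a receptor, as the list also holds receptor chains, such as CSF2RB, and genes such as EBI3 and CASP1. Of those tested, 1 was called higher, 1 was called lower and 45 were not called (4.26% called, beside 2.42% of all genes), with a median log2 fold change of -0.04. CSF2RB, the common beta chain of the receptors for IL-3, IL-5 and GM-CSF, was higher in Tan I. It had 425, 463 and 433 normalized counts in DMSO and 644, 584 and 584 in Tan I, without overlap, and rose by 0.45 on the log2 scale (95% confidence interval 0.18 to 0.73). In limma its unadjusted p was 0.00566, and after adjustment it was 0.999. It was called in each of its 17 alternatives at this fold threshold. MYD88, the adaptor of the IL-1 receptor family, was lower, with 215, 254 and 202 in DMSO and 161, 150 and 188 in Tan I and a log2 fold change of -0.43 (unadjusted p = 0.0380 in limma). Its call was lost in 6 of 17 alternatives, namely in the replicate block and without each library other than Tan I replicate 3, where the unadjusted p lay between 0.0524 and 0.129.

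SOCS2, TAB2 and CRLF2, named here after their values were seen, were the other genes of this list whose libraries did not overlap. In each the highest Tan I value was under the lowest DMSO value, and none was called, CRLF2 being under the mean of 10. SOCS2, a feedback inhibitor of cytokine signalling, had a log2 fold change of -0.34. The kinases JAK1 and TYK2 and the transcription factors STAT3 and STAT5B, all well expressed and also chosen after their values were seen, had log2 fold changes of -0.02, 0.07, -0.10 and -0.09.

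Of 55 genes downstream of chemokine receptors or of the chemokine family under other names, 42 were listed and 41 tested. Limma called 0 higher and 1 lower (2.44%, beside 2.42% of all genes). Of the 41, 35 had a log2 fold change above 0 (49.7% of all genes did), with a median of 0.18. The libraries of the groups overlapped for 39 of the 41 and lay apart for 2 (4.88%, beside 7.89% of all genes). The count above 0 was not examined with libraries left out, and the part of the first principal component in it was not tested. The called gene was ARRB1, which encodes a beta-arrestin that ends receptor signalling. It had 302, 337 and 278 normalized counts in DMSO and 274, 204 and 185 in Tan I, with Tan I replicate 1 just under the lowest DMSO library, and its log2 fold change came to -0.48 (95% confidence interval -0.92 to -0.05; unadjusted p = 0.0346 in limma). The call was lost without any 1 library other than Tan I replicate 1, with unadjusted p-values between 0.0509 and 0.106. ARRB2, its close relative, had a log2 fold change of 0.17 and was not called.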

How the data were processed

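RNA-seq of NB4 cells was read from the table of normalized counts that the authors deposited. Per the study's methods and the labels, paired-end reads were aligned to GRCh38 with STAR, reads mapping to several places were removed, and genes were counted with featureCounts and normalized with DESeq2. Tool versions, the annotation release and the strand setting are not given in the sources used here. The deposited signal values are thus reads divided by a size factor per library, and the reads were recovered from the steps between values (100% whole within 0.01). Columns with the authors' own means, fold changes and p-values were not used.

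Genes with a mean of at least 10 were tested on log2(normalized count + 1) with limma 3.58.1 (empirical Bayes with a trend) in R 4.3.3, Tan I against DMSO, with Benjamini-Hochberg adjustment over all 16887 genes. A fold change on this scale understates that of low genes. edgeR 4.0.16 and DESeq2 1.42.0 were run on the recovered reads as alternatives. The procedure was also run on counts simulated independently for each gene. Apart from depth, these counts held no difference between libraries like the first principal component here. That run therefore cannot show how the procedure behaves on these data. Gene positions and exon lengths are from GENCODE release 44, and promoters from RefSeq (GRCh38.p14). The genes named were those called, the 20 of highest mean, the 3 largest rises and falls, and the called genes of the signalling lists. Every other gene given with values (such as IL10RB, IL17RD, IL1B, IL23A, CCR1, CXCR2, CCL25 and IL18RAP) was chosen after its values were seen. The members and lists were chosen with earlier results of these data known. The depth was 21502760 to 31679138 reads per library, and precision was limited by 3 libraries per group.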

Additional observations from a re-analysis of the deposited data

How the results depend on the processing

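CXCL8, IL6R and CSF2RB kept their direction and their call under every alternative run for them at the log2 fold threshold of 0.25 and lost the call at a threshold of 1, while IL9R, MYD88 and ARRB1 lost the call under those named above. The counts were less stable, and the causes were not tested. Of the members, 3 were called, but 5 without the variance trend, 8 in a fit holding the first principal component, 0 at a log2 fold threshold of 1, and 2 to 13 when 1 library was left out, with 13 without Tan I replicate 1 and 6 without DMSO replicate 2. Of all genes, 408 were called, but 1496 with that component, 49 at the larger fold threshold and 160 (without Tan I replicate 2) to 1496 (without Tan I replicate 1) with 1 library left out. The calls over all genes were 223 higher and 185 lower, and 188 higher and 250 lower when all libraries were set to equal totals. After adjustment, 0 genes were called by limma, 16 by DESeq2 and 195 with the component, the last including 2 members, CXCL8 and IL6R. That component was computed from the same expression values. The interleukin signalling list had 2 calls, but 4 with equal totals, 6 with the component, 0 at the larger fold threshold and 1 to 4 with 1 library left out. The chemokine list had 1 call, but 2 with equal totals, 3 with the component, 0 at the larger fold threshold and 0 to 5 with 1 library left out.

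The labels do not say whether same-numbered libraries were handled together. The correlations of same-numbered libraries' deviations from their group means were 0.751, -0.0881 and -0.451. They cannot decide this, because most of the variance lies on the first principal component. With the replicate block, 6 members, 348 of all genes (266 of them shared with the 408) and 1 gene of the interleukin signalling list were called.

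Some uncalled genes near 0 changed sign. With 1 library left out, the log2 fold change ran from -0.32 to 0.0037 for IL11RA, from -0.25 to 0.018 for IL16 (0.0048 without DMSO replicate 2), from -0.17 to 0.0086 for IL1RAP, from -0.082 to 0.049 for IL4R (0.0015 without DMSO replicate 2 and 0.0076 without Tan I replicate 3), from -0.17 to 0.087 for IL13RA1, from -0.73 to 0.024 for IL18BP, from -0.47 to 0.0032 for IL6ST and from -0.19 to 0.056 for IL15RA. The highest value came without DMSO replicate 2 for IL13RA1 and IL15RA, without Tan I replicate 1 for IL4R, without Tan I replicate 2 for IL16 and IL1RAP, and without Tan I replicate 3 for IL11RA, IL18BP and IL6ST. With quantile normalization IL4R was at 0.00098.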
